A study of Mus musculus with 8 samples.

Results

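The Ms4a genes encode small proteins that cross the membrane several times and sit on cells of the blood and immune system, many of them beside Fc receptors or other signalling receptors. In the mouse they lie next to each other on chromosome 19. Ms4a2 is the beta chain of the high affinity IgE receptor of mast cells and basophils. Ms4a3 is a gene of the precursors of granulocytes and monocytes. Ms4a4b and Ms4a6b are known from T cells, and Ms4a6c, Ms4a6d and Ms4a7 from monocytes and macrophages. The 9 family genes described here (Ms4a2, Ms4a3, Ms4a4b, Ms4a4c, Ms4a4d, Ms4a6b, Ms4a6c, Ms4a6d and Ms4a7) were taken by the gene name that the arrays give to a probe. They have 12 probes, out of 24165 genes named on the arrays.

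RNA was measured on one-colour arrays in cells enriched with magnetic beads for CD31 (PECAM-1), which joins endothelial cells at their borders and is also carried by platelets and many white blood cells. The cells came from embryos at stage E12.5 on a C57Bl/6J background, after removal of fetal liver and brain, with 1 RNA sample and 1 array for each embryo. The 4 mutants carried the Gata2 +9.5 mutation on both alleles (Gata2+9.5-/-) and the 4 others were wild type littermates, all from matings of Gata2 +9.5+/- parents. The +9.5 site is an intronic enhancer. The factor made from Gata2 works in blood stem and progenitor cells and in mast cells. Wild type 1 and 2 and mutant 1 and 2 were litter 1, and the embryos numbered 3 and 4 were litter 2. The arrays of a litter shared a slide and a scan, so litter, slide and scan cannot be told apart. In a bulk sample, fewer cells of a type and less RNA in each cell cannot be told apart either.

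The share of non-control spots well above background was 74.9% to 92.0% per array, on arrays of 62976 spots, and the signal at the 75th percentile was 996 to 2481. Levels below are log2 signals relative to the 75th percentile of the array, so that 0 is the signal of that percentile and each unit is a doubling. Along the first principal component, the arrays of mutant 4, wild type 2 and wild type 3 lay apart from the rest. The number of arrays limits the precision of every difference. As a check of the labels, Gata2 itself was at 2.00, 1.66, 0.89 and 1.42 in the wild type samples and at -1.24, -0.15, -1.27 and -1.07 in the mutants. The groups did not overlap and differed by -2.42 ± 0.39 (SE, n = 4 against 4), with an adjusted p of 0.0859 by limma over all features. The markers of the labelled cell type were present, Pecam1 at a mean of 2.97 in the wild type and 3.19 in the mutant samples.

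The probes are 60 bases long, and their sequences show which transcripts the values rest on. The first 30 bases are given for the genes that carry the results below, with the position of the whole probe on mm9 as the array files give it. For Ms4a4c bases 8 to 37 are shown, with a dinucleotide repeat in capitals.
Ms4a3 (chr19:11704055-11704114, minus strand): agatgaaatgcaatccttctgtcatggaaa
Ms4a7 (chr19:11395903-11395962, minus strand): agcagagtacagctagacttgcctgaaatc
Ms4a6c (chr19:11545580-11545639, plus strand): tgtggcagctccatcatgattccacaggta
Ms4a6d (chr19:11661426-11661485, minus strand): aatatcttaatgtgtgtattggttaatcag
Ms4a2 (chr19:11691701-11691760, minus strand): gttttgtgtcacaatttcacatacatcttt
Ms4a4c, repeat probe (chr19:11500839-11500898, plus strand): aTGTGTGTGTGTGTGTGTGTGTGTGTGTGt
The repeat of the Ms4a4c probe has 14 units of TG. Between probes of different Ms4a genes the longest shared run was 10 bases, between Ms4a8a and Ms4a14, and the 6 probes printed here shared at most 9 with a probe of another family gene.

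Not all of the family was detected in these cells. Ms4a2 was not well above background on any of the 8 arrays, Ms4a6b was on 1 and Ms4a4d on 3. These 3 genes did not pass the filter, which asks for 4 arrays, and were not tested. Ms4a4b, Ms4a4c, Ms4a6c and Ms4a7 had a probe well above background on all 8 arrays, and Ms4a3 and Ms4a6d were so on 7. The level of one gene is not set against that of another here, because a probe's brightness also depends on its sequence.

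**Figure D1:**
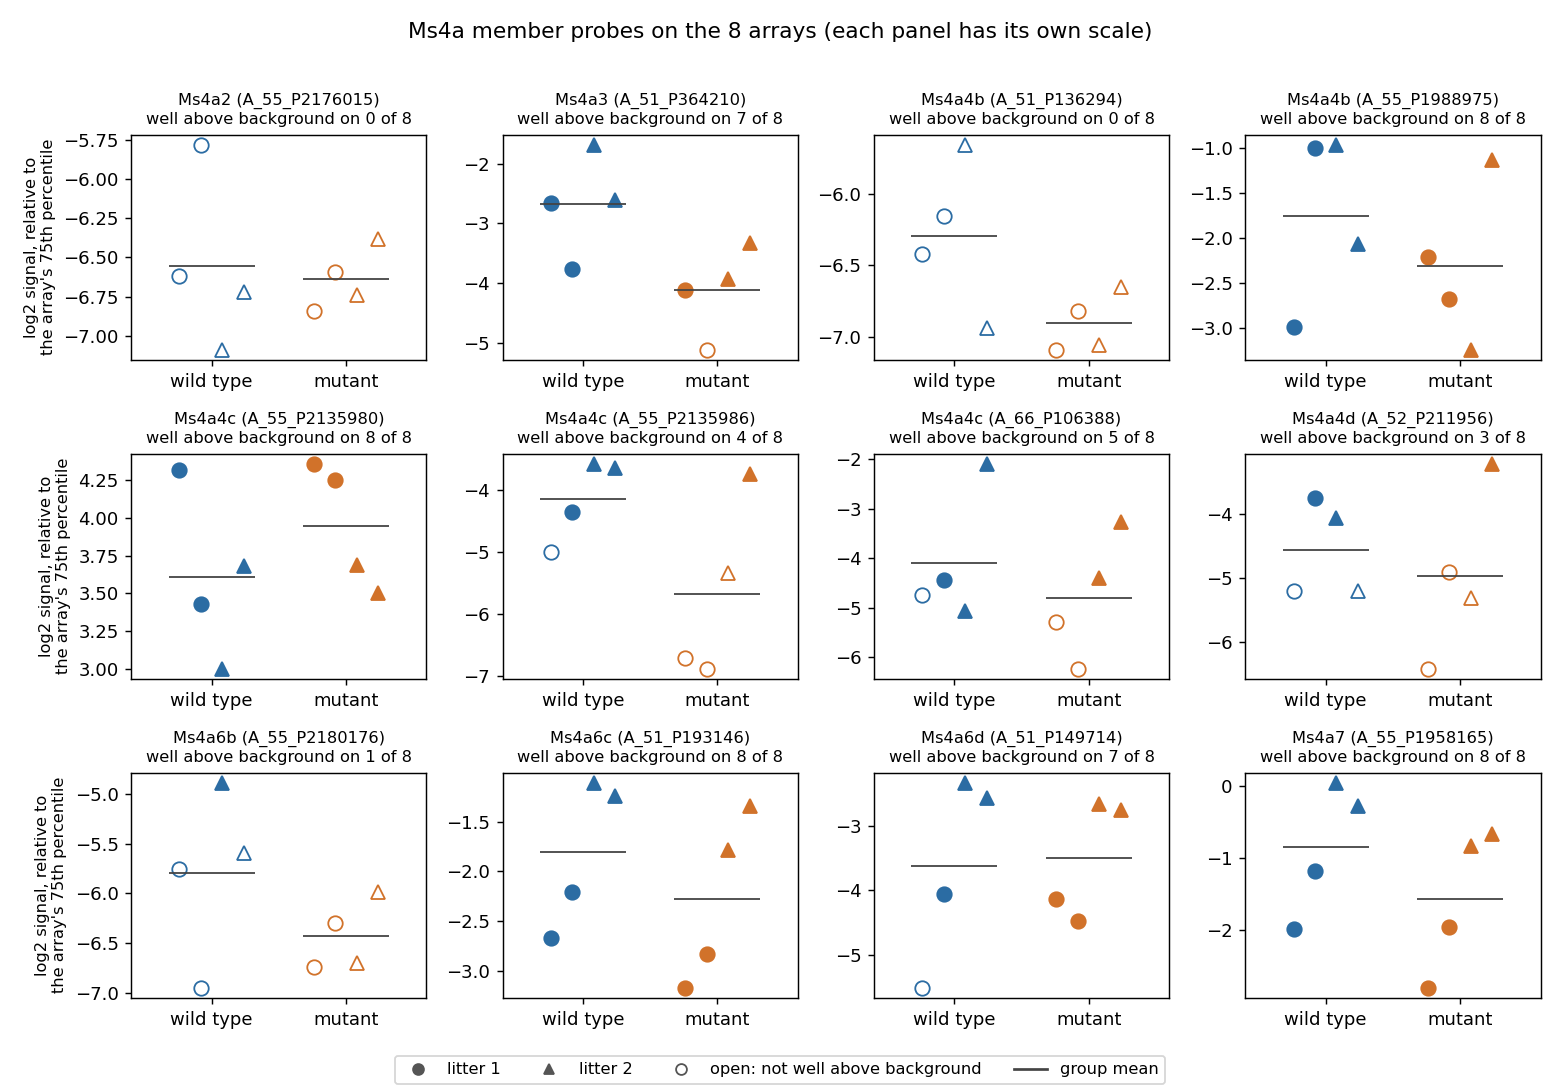
Log2 signal relative to the array's 75th percentile (y axis, a scale for each panel) of the 12 probes of the 9 genes in wild type and mutant samples (x axis). Blue is wild type and orange mutant, circles are litter 1 and triangles litter 2, open symbols are not well above background, and the lines are group means. Ms4a2 has open symbols on all 8 arrays, while in Ms4a7 all 4 triangles lie above all 4 circles.

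Ms4a2, the chain that amplifies the signal of the IgE receptor, was at -6.62, -5.78, -7.09 and -6.72 in the wild type and at -6.84, -6.59, -6.74 and -6.38 in the mutant samples. All 8 values are not well above background and carry no difference between the groups. Its partner chains were measured. Fcer1a, the chain that binds IgE, was at -5.37, -4.17, -4.16 and -4.53 in the wild type and at -6.62, -6.62, -6.26 and -4.30 in the mutant samples, and it was well above background on 4 arrays. Fcer1g, the gamma chain shared with other Fc receptors, was at 1.79, 1.34, 2.30 and 2.90 in the wild type and at 0.06, 1.02, 1.69 and 1.45 in the mutant samples. The groups overlapped in both genes. Their differences were -1.39 ± 0.54 and -1.03 ± 0.46, with an adjusted p of 0.717 by limma for each. In mutant 1, 2 and 3 Fcer1a lay under the lowest signal well above background on those arrays (-4.83, -4.56 and -4.83). In wild type 1 it did so too (-4.58). The difference of Fcer1a thus rests on mutant values that were mostly not well above background.

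Of the 27 other genes of the IgE receptor and its signalling, 0 passed the test by genotype (limma, 7 at an unadjusted p under 0.05), and their median difference was -0.33 against 0.05 over all 40235 features. Named by rule for the highest signal in the list, Plcg1 and Plcg2, the phospholipases that release the calcium signal, had differences of 0.41 ± 0.43 and -0.33 ± 0.38. Mast cell and basophil markers without Ms4a2 had a median difference of -1.06 over 19 genes, Gata2 among them, and 1 passed the test. The 1 gene was Hdc, the enzyme that makes histamine, which fell by 3.53 on the log2 scale (SE 0.42, adjusted p = 0.0231 by limma). With litter as a block its adjusted p was 0.0531, and no gene of the list was called when any 1 wild type sample, mutant 1 or mutant 3 was left out. The summed level of these markers, as a multiple of the 75th percentile, was 21.1 to 37.9 in the wild type and 10.1 to 13.3 in the mutant samples, without overlap. Bright genes such as Srgn, which differed by -1.31 ± 0.34, weigh most in this sum. The median level of the list did overlap, at -2.46 to -1.24 in wild type and -3.36 to -2.41 in mutant samples. The part of these markers in the values of the IgE receptor chains was not tested.

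By the probe tested for each gene, Ms4a3 had the largest genotype difference among the 6 tested family genes, and it did not pass the test. A dimmer probe of Ms4a4c that was not taken for the test differed by -1.52. That probe was well above background in 3 wild type samples and only 1 mutant sample. The levels of Ms4a3 were -2.66, -3.76, -1.68 and -2.60 in the wild type and -4.12, -5.12, -3.93 and -3.32 in the mutant samples. The ranges overlapped, through wild type 2 and mutant 4. Within each litter, both mutants were below both wild type samples, with differences of the means of -1.41 in litter 1 and -1.48 in litter 2. The group means were -2.68 ± 0.85 and -4.12 ± 0.75 (SD, n = 4 each), a 2.72-fold lower signal in the mutants. The difference was -1.45 ± 0.51 (SE), with an unadjusted p of 0.0162 and an adjusted p of 0.717 by limma.

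With litter as a block the unadjusted p of Ms4a3 was 0.00449 and the adjusted p 0.56. Mutant 2, the lowest sample, was the only one in which Ms4a3 was not well above background. With background correction by normexp and quantile normalization the difference was -0.68. Unadjusted p-values under 0.05 with a lower mutant value were found for 2.67% of all features, and Ms4a3 was the 1 family gene among them. All mutants under all wild type samples within each litter was found for 1.66% of all features, and for 2 of the 6 tested family genes, Ms4a3 and Ms4a6c.

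Other genes of granulocyte and monocyte precursors were lower in the mutants by a median of 1.03 on the log2 scale over 18 genes, and 3 of the 18 passed the test. S100a9, one chain of the calcium-binding pair calprotectin of neutrophils, fell by 4.93 on the log2 scale (SE 0.58). Mpo, the myeloperoxidase of their granules, fell by 4.88 (SE 0.63), and S100a8, the other chain of calprotectin, fell by 3.98 (SE 0.52). Their adjusted p-values were 0.0231, 0.0341 and 0.0341 by limma, and 0.0531, 0.0643 and 0.0643 with litter as a block. No gene of the list was called without wild type 1, wild type 3, wild type 4, mutant 1 or mutant 3, or without the 3 arrays apart, while the median of the list stayed between -1.28 and -0.94 with each array left out. The summed level of the 18 genes overlapped between the groups, at 46.8 to 94.7 in wild type and 58.1 to 88.6 in mutant samples. Csf3r, the brightest gene of the list, weighs most in this sum and differed by 0.37 ± 0.38. The median level of the list did not overlap, at -0.82 to -0.12 in wild type and -2.98 to -1.65 in mutant samples. The part of these cells in the difference of Ms4a3 was not tested.

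Platelet and megakaryocyte markers were lower in the mutants by a median of 2.65 on the log2 scale, and 12 of 12 had a lower estimate. Of the 12, 3 passed the test. Treml1, which platelets store in granules and bring to the surface when activated, fell by 3.7 on the log2 scale (SE 0.43), Gp9, a subunit of the receptor for von Willebrand factor, by 3.49 (SE 0.46) and Gp1ba, the chain of that receptor that binds its ligand, fell by 2.8 (SE 0.39). Their adjusted p-values were 0.0231, 0.0362 and 0.0441 by limma. The summed level of the list was 51.1 to 111 in the wild type and 7.53 to 18.9 in the mutant samples, without overlap. No gene of it was called without wild type 1, wild type 3, wild type 4, mutant 1 or mutant 3, or without the 3 arrays apart. Leaving out wild type 2 gave 1 call, mutant 2 gave 5, and scaling to the median gave 2. The part of these cells in the values of the Ms4a genes was not tested.

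The 3 genes of macrophages did not pass the test by genotype. Ms4a7 was at -1.98, -1.17, 0.05 and -0.27 in the wild type and at -2.80, -1.96, -0.83 and -0.66 in the mutant samples. The groups overlapped, and within litter 1 mutant 2 was not below wild type 1. The difference was -0.72 ± 0.58 (SE), with an adjusted p of 0.717 by limma. It ranged from -1.1 without wild type 1 to -0.31 without mutant 1, and was -0.43 without wild type 3 and -1.4 with array weights. With litter as a block its unadjusted p was 0.0462 and its adjusted p 0.56.

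Ms4a6c was at -2.67, -2.21, -1.11 and -1.24 in the wild type and at -3.17, -2.83, -1.78 and -1.34 in the mutant samples. Each pair of mutants was below the wild type pair of its litter, though the groups overlapped across litters. The difference was -0.47 ± 0.51 (adjusted p = 0.717 by limma). It ranged from -0.79 without mutant 4 to -0.18 without mutant 1, and was -1.02 with array weights. Ms4a6d was at -5.51, -4.06, -2.34 and -2.57 in the wild type and at -4.14, -4.47, -2.67 and -2.76 in the mutant samples. Its difference was 0.11 ± 0.71 (adjusted p = 0.941 by limma). The sign turned when wild type 1, whose value was not well above background, was left out (-0.52), and also without wild type 2 (-0.04), mutant 3 (-0.17) or mutant 4 (-0.14).

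Ms4a4b, a gene of T cells, has 2 probes that gave different pictures. One was well above background on all arrays, at -2.99, -1.0, -0.97 and -2.07 in the wild type and at -2.21, -2.68, -3.24 and -1.14 in the mutant samples. Its difference was -0.56 ± 0.57 (adjusted p = 0.717 by limma). The other was not well above background on any array. B, T and natural killer cell markers had a median genotype difference of -0.39 over 20 genes, with 0 of them past the threshold (limma, 3 at an unadjusted p under 0.05). Ms4a1, which encodes CD20 of B cells, was well above background on 1 array.

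Across the 6 tested genes, 0 passed the threshold in either direction and 1, Ms4a3, had an unadjusted p under 0.05 (limma). Over all features 0.0447% (18) were called lower and 0 higher in mutants, out of 1226 at an unadjusted p under 0.05. With litter as a block 0 features were called, out of 1954. The median difference of the 6 was -0.52, with 4 lower and 2 higher, against 0.05 over all features. It was -0.87 without wild type 1 or mutant 4, -0.27 without wild type 3 and -0.24 without mutant 1. It was -1.01 with array weights, -0.25 after quantile normalization and -0.19 after normexp and quantile normalization. Scaling to the median gave -0.25 and moved the median of all features to 0.32. The genotype differences of Ms4a3 and Ms4a7, genes of precursors and of macrophages, were set against each other in an exact permutation test over the 8 samples (two-sided, smallest possible p = 0.0286). The difference of Ms4a3 minus that of Ms4a7 was -0.72, with p = 0.257 by the exact test and 0.386 after adjustment over the 3 pairs computed. After normexp and quantile normalization it was -0.19. The other 2 pairs held Ms4a2 and are not reported, because its signal was not well above background on any array.

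In the authors' deposited table the fold changes of the same probes, on the log2 scale, were -1.18 for Ms4a3, -0.46 for Ms4a7, -0.21 for Ms4a6c and 0.37 for Ms4a6d. For Ms4a4c the repeat probe had 0.61 there, and the probes not taken for the test had -1.26 and -0.45. Ms4a4b had -0.29 by its tested probe. Ms4a3 and the Ms4a4c probe with -1.26, which is larger in size, each had an adjusted p-value of 0.624 in the authors' deposited table.

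**Figure D2:**
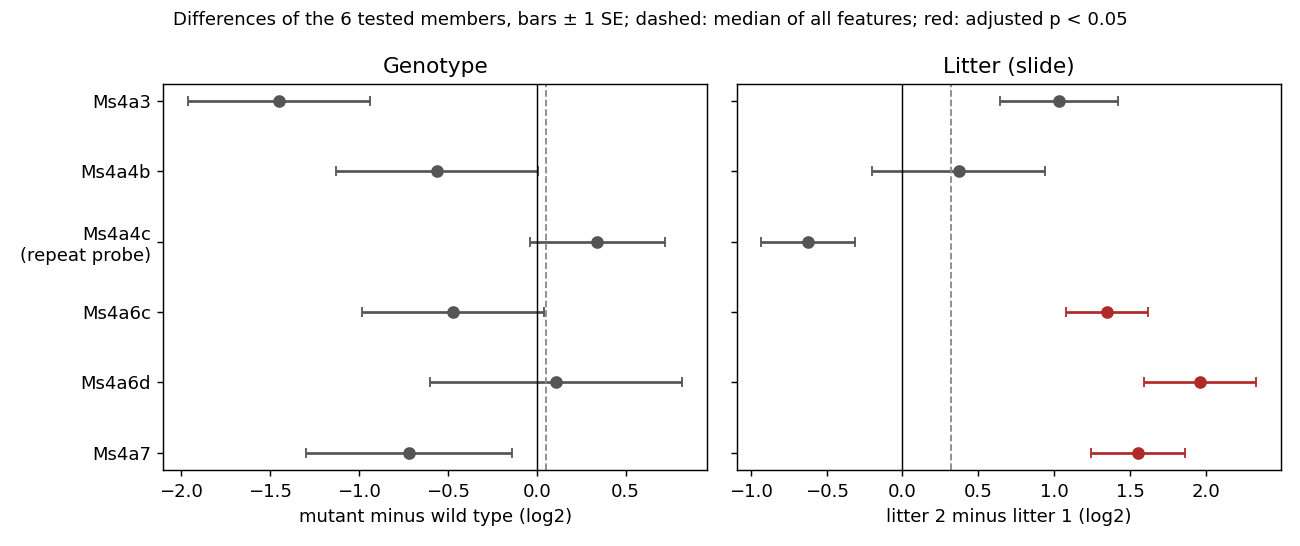
Differences by genotype (left) and by litter (right) of the 6 tested genes on the log2 scale (x axis), with bars of 1 SE from the limma fit. The dashed lines are the medians of all features, 0.05 and 0.32, and red marks an adjusted p under 0.05. By genotype no point is red, and by litter Ms4a6c, Ms4a6d and Ms4a7 are red.

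Ms4a4c has 3 probes that did not agree in direction, and the one taken for the test holds the TG repeat printed above. The repeat probe was at 4.32, 3.43, 3.00 and 3.68 in the wild type and at 4.36, 4.25, 3.69 and 3.5 in the mutant samples, a difference of 0.34 ± 0.38 (adjusted p = 0.717 by limma). The other 2 were lower in the mutants, by 1.52 on the log2 scale for the probe at chr19:11493486-11493545 and by 0.71 for the probe at chr19:11500973-11501032. Those 2 were well above background on 4 and 5 of the 8 arrays. The probe at chr19:11493486-11493545 was so in 3 wild type samples but, of the mutants, only in mutant 4. Its difference thus rests on mutant values that were mostly not well above background. The probe at chr19:11500973-11501032 was so in 3 wild type and 2 mutant samples. Neither passed the test when every probe was a feature of its own without a filter (adjusted p = 0.769 by limma for each).

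The first of them was at -5.00, -4.35, -3.58 and -3.65 in the wild type and at -6.71, -6.88, -5.34 and -3.75 in the mutant samples. The second was at -4.74, -4.44, -5.07 and -2.09 in the wild type and at -5.29, -6.23, -4.39 and -3.27 in the mutant samples. Over the 8 arrays the level of the repeat probe correlated at -0.57 to -0.89 with the other 5 tested genes. These describe 8 arrays that share a scaling.

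Of 75 probes with 8 or more GT units, 100% were well above background on all 8 arrays, against 68.2% of all 55670 probes. Of 35 probes with a CA repeat of the same length it was 97.1%. A probe of Ms4a5, with 8 CA units, went the other way and was well above background on 3 arrays. The median genotype difference was 0.33 over the GT probes, 0.30 over the CA probes and 0.07 over all probes. The value of Ms4a4c in the counts by genotype above rests on a probe of this kind, and whether its signal comes from Ms4a4c was not tested.

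By litter, 3 of the 6 tested genes passed the test. Ms4a6d was higher in litter 2 by 1.96 ± 0.37 on the log2 scale (3.89-fold, adjusted p = 0.0238), Ms4a7 by 1.55 ± 0.31 (2.93-fold, adjusted p = 0.0299) and Ms4a6c by 1.35 ± 0.27 (2.55-fold, adjusted p = 0.0287), all by limma with genotype in the model. In each of these 3 genes all 4 samples of litter 2 were above all 4 of litter 1. Over all features 4.02% were called higher in litter 2, and 10.3% had groups that did not overlap in that direction. The median of all features was itself 0.32 higher in litter 2.

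The litter difference was present in each genotype. For Ms4a7 litter 2 was above litter 1 by 1.46 in the wild type and 1.64 in the mutant samples. For Ms4a6c these values were 1.27 and 1.44, and for Ms4a6d 2.33 and 1.59. The interaction of genotype and litter was not past the threshold for any of the 6 tested genes or for any feature (490 features at an unadjusted p under 0.05, limma).

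Relative to the median of all features, the litter difference of Ms4a7 was 1.22 with scaling to the 75th percentile, 1.23 with scaling to the median, 1.27 after quantile normalization and 1.21 after background correction with normexp and quantile normalization. That of Ms4a6c was 1.03, 1.03, 0.88 and 0.62, and that of Ms4a6d 1.63, 1.64, 1.23 and 0.65. Scaling to the 75th percentile and scaling to the median each shift a whole array by a constant. Their relative values are therefore nearly the same by construction and are not separate checks. Scaling to the median, under which the median of all features was -0.15, left 0 of the 3 calls. Leaving out wild type 4, mutant 1, mutant 2 or mutant 3 also left 0, leaving out wild type 1, wild type 3 or mutant 4 left 1, and without wild type 2 there were 3. Without the 3 arrays apart there were 2. After quantile normalization, with or without normexp, there were also 2, and Ms4a6d was not among them.

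Ms4a3 was higher in litter 2 by 1.03 ± 0.39 (adjusted p = 0.143) and Ms4a4b by 0.37 ± 0.57 (adjusted p = 0.666), and the repeat probe of Ms4a4c differed by -0.62 ± 0.31 (adjusted p = 0.228, all by limma). Whether these differ from the 3 called genes was not tested.

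Markers of macrophages moved with the same litter. Of 20 macrophage genes other than Ms4a genes, 11 were called higher in litter 2 and 15 had a higher estimate, with a median difference of 1.36. The median level of the list was -0.90 to -0.39 in litter 1 and 0.54 to 0.89 in litter 2, and its summed level 43.6 to 62.8 and 54.3 to 77.9. Every marker of the list was well above background on at least 1 array. In alternatives chosen after seeing the data, scaling to the median gave 1 call and a median of 0.89, and without mutant 1, mutant 2 or mutant 3 there were 0 calls. Leaving out wild type 1 gave 2 calls, wild type 2 gave 12, wild type 3 gave 6, wild type 4 or mutant 4 gave 3, and the 3 arrays apart gave 5. The median was 1.23 to 1.54 with each array left out. F13a1, a clotting factor subunit made by macrophages, was higher by 2.12 ± 0.34, C1qa, a chain of complement C1q, by 1.98 ± 0.30 and Mrc1, the mannose receptor, by 1.73 ± 0.28 (adjusted p = 0.0168, 0.0156 and 0.0168 by limma). Of 17 tested monocyte markers, 4 were called higher in litter 2, with a median of 0.51, and they were F13a1 again, Lyz2, a lysozyme, at 1.49 ± 0.30, Csf1r, the receptor for the macrophage growth factor, at 1.31 ± 0.28 and Cd14. By genotype 0 of the 17 passed (limma, 3 at an unadjusted p under 0.05), with a median of -0.62. The 4 litter calls became 1 with scaling to the median or without wild type 1, wild type 3, wild type 4 or mutant 4, and 0 without mutant 1, mutant 2 or mutant 3.

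Erythroid markers were higher in litter 2 as well, by a median of 1.77 over 10 genes with 5 called, and endothelial markers were lower by a median of 0.97 on the log2 scale over 15 genes with 3 called. Their summed levels were 329 to 725 and 1040 to 2020 for the erythroid and 800 to 1370 and 429 to 771 for the endothelial list in litter 1 and litter 2. The erythroid calls were 0 without mutant 1 or mutant 2, and the endothelial calls were 0 when wild type 1, wild type 4 or any 1 of the mutants was left out. Without the 3 arrays apart 8 genes of each list were called. The part of these lists in the litter difference of the Ms4a genes was not tested.

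Proteins that work with the macrophage Ms4a proteins or beside them were looked at in a list of 17 genes. By genotype 0 passed (limma, 1 at an unadjusted p under 0.05), with a median of -0.47. Named by the same rule, Apoe, a lipid carrier, differed by -0.26 ± 0.39 and Tyrobp, the adaptor of Trem2, by -1.14 ± 0.55 (adjusted p = 0.754 and 0.717 by limma). By litter 4 of the 17 were called higher, with a median of 1.02. They were Clec7a, the receptor for fungal glucans, at 1.65 ± 0.33, Fcgr3, an Fc receptor for IgG, at 1.58 ± 0.30, Tyrobp at 1.41 ± 0.31 and Cd14, the co-receptor for lipopolysaccharide, at 1.24 ± 0.26. Tyrobp, Fcgr3 and Trem2 are also in the macrophage list. With scaling to the median, and without wild type 1, wild type 4 or any 1 of the mutants, 0 were called higher, without the 3 arrays apart 1, without wild type 3 there were 2 and without wild type 2 there were 5.

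**Figure D3:**
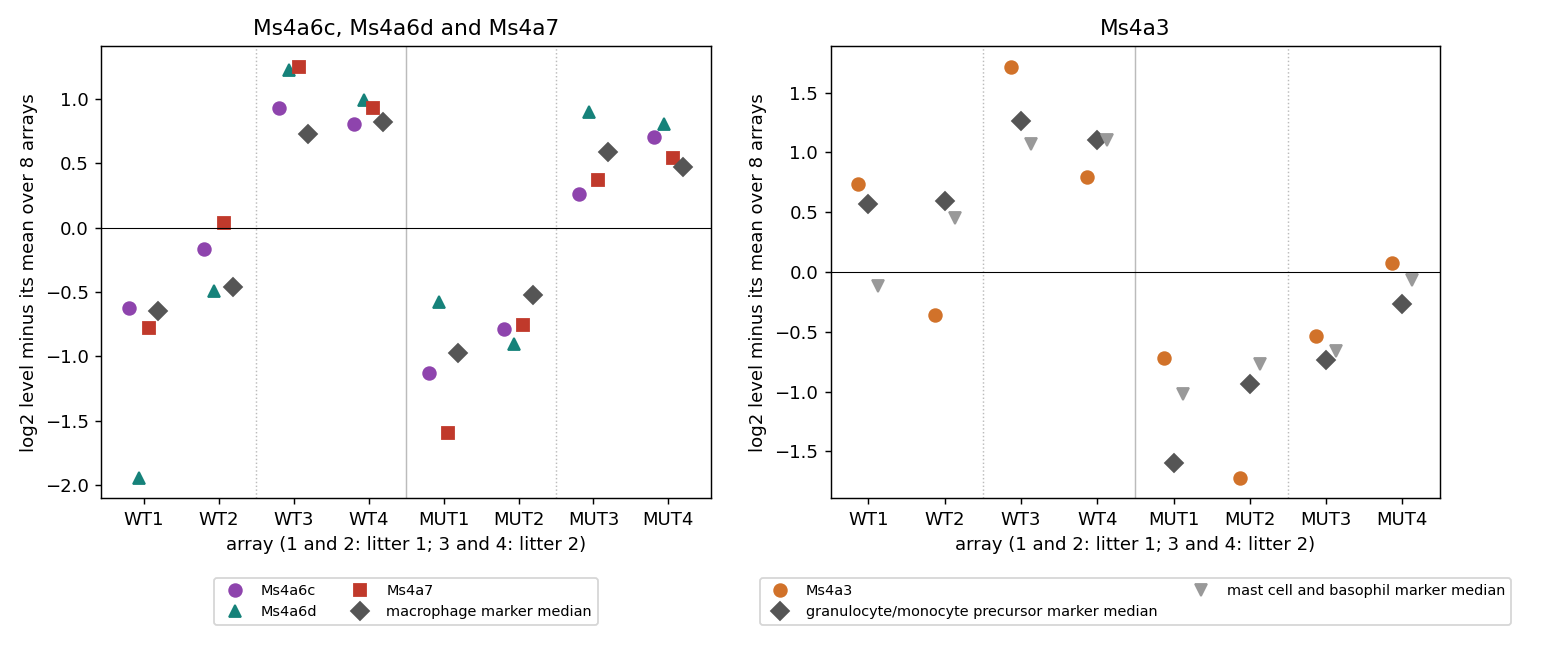
Log2 level minus its mean over the 8 arrays (y axis) for each array (x axis). Left, Ms4a6c, Ms4a6d, Ms4a7 and the median of the macrophage marker list, all above their mean on the 4 arrays of litter 2. Right, Ms4a3 with the medians of the precursor list and of the mast cell and basophil list, which lie below their mean in all 4 mutants, while Ms4a3 is below its mean in 3. The mast cell and basophil median is also below its mean in wild type 1, and Ms4a3 is in wild type 2.

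Over the 8 arrays Ms4a7 and Ms4a6c ran closely together (Pearson r = 0.98), and Ms4a6d correlated with them at 0.82 and 0.86. As a description of 8 arrays that share litters and scaling, the symbols outside the family most like Ms4a7 were Il1b (r = 0.992), Cdh22 (0.987), Mlana (0.981), Ager (0.976) and Psmb9 (0.974). Il1b encodes the cytokine interleukin-1 beta. For Ms4a7, 39 of 21447 symbols had a correlation over 0.95. For Ms4a3 there were 2, Grhl3 (r = 0.977), a transcription factor of surface epithelia, and Sh3bgr (0.961), followed by Gm14151 (0.947), Krt19 (0.931), a keratin of simple epithelia, and Dmkn (0.929), a protein of the epidermis. No marker of granulocyte precursors was among these 5, and no gene of the macrophage list was among the 5 named for Ms4a7.

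The rest of the family gives the setting on the chromosome. The probes of the Ms4a genes run from chr19:11036787 to 11704114 (mm9). Ms4a4a, next to Ms4a7 in the order of tested probes, had a litter difference of 1.31 ± 0.34 (adjusted p = 0.0604 by limma), and its levels in litter 2 (-0.30, -1.55, -1.64 and -1.14) were all above those in litter 1 (-2.36, -1.84, -2.76 and -2.93). Of the 8 tested Ms4a genes outside the 9, Ms4a4a among them, 0 passed by genotype and 0 by litter (limma, 0 and 2 at an unadjusted p under 0.05). Their median differences were -0.36 by genotype, with 5 of 8 lower in the mutants, and 0.81 by litter, with all 8 higher in litter 2. The median of all features by litter was 0.32. Some of the 8 passed the filter mostly through litter 2, so their direction by litter is in part set by the filter. Ms4a13 was well above background on 0 arrays of litter 1 and 4 of litter 2. For Ms4a5 and Ms4a14 these counts were 1 and 4, and for Ms4a8a 1 and 3. A list of relatives that leaves out Ms4a19 and holds Tmem176a and Tmem176b, which are not Ms4a genes by name, had medians of 0.05 and 0.68 over 9 tested genes.

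The nearest genes with a probe outside the cluster were Ccdc86 and Ptgdr2 on one side, with genotype differences of 0.40 and -1.26 (adjusted p = 0.717 by limma for each). Ptgdr2 encodes a receptor for prostaglandin D2 found on basophils and eosinophils. On the other side, Oosp2 and Oosp1 were well above background on 3 arrays and were not tested.

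**Figure D4:**
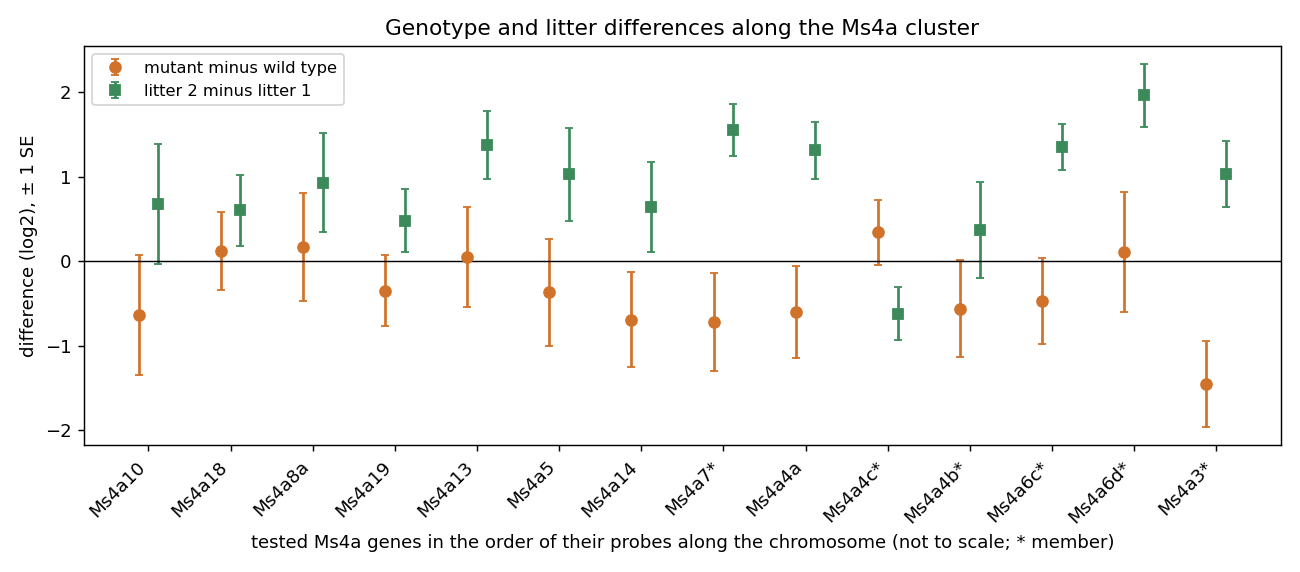
Differences of the 14 tested Ms4a genes (y axis, log2, with bars of 1 SE), in the order of their probes along chromosome 19 (x axis, not to scale). Circles are mutant minus wild type and squares litter 2 minus litter 1. Of the squares, 13 lie above 0 and the 1 below it is the repeat probe of Ms4a4c, while the lowest circle is Ms4a3. The median of all features by litter was itself 0.32.

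Promoters are shown because Gata2 binds GATA sequences, and because those of Ms4a6b and Ms4a6c, which were well above background on 1 and on 8 arrays, hold a stretch in common. The stretches hold the 250 bases before the annotated start (RefSeq, GRCm38.p6), and 8 of the 9 genes had one. In Ms4a2 and Ms4a3 capitals mark the GATA words searched, which were AGATAA or its variant AGATAG and also TGATAA or its variant TGATAG, on both strands.
Ms4a2 (chr19:11623720-11623969, minus strand): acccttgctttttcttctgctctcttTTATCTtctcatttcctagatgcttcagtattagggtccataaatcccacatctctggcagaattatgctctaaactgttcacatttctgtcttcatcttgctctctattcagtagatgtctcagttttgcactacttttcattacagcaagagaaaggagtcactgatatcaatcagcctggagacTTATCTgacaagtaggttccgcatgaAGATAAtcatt
Ms4a3 (chr19:11640852-11641101, minus strand): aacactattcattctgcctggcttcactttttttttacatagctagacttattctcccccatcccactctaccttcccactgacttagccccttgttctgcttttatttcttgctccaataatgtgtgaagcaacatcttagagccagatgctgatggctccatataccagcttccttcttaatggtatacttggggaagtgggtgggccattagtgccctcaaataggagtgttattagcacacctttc
The Ms4a2 stretch holds 3 such words and the Ms4a3 stretch none. Of all 27025 promoters of this length, 27.1% hold at least 1. Among the 8 genes, Ms4a6b and the downstream start of Ms4a7 had 1 word each.

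In Ms4a6b and Ms4a6c capitals mark the longest run that they share, 48 bases.
Ms4a6b (chr19:11518309-11518558, plus strand): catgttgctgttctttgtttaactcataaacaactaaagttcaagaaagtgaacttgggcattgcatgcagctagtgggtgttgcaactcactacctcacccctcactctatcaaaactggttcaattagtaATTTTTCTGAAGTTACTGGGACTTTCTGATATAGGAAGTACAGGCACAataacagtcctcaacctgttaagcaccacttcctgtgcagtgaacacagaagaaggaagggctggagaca
Ms4a6c (chr19:11469118-11469367, plus strand): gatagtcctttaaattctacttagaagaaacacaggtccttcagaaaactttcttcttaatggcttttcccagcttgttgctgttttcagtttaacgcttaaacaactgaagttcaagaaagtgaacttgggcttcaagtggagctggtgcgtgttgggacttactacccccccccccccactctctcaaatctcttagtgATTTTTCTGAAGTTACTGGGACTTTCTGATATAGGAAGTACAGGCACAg
The run ends at base 71 before the start of Ms4a6b and at base 2 before that of Ms4a6c, so the annotated starts stand at different distances from the same stretch. GAGGAA, the core bound by the myeloid factor PU.1, was in the Ms4a4b and Ms4a4c stretches and in 23.1% of all promoters, in both orientations. TTGCNNAA, a form of the C/EBP site, was in the Ms4a4d stretch and in 9.55% of all promoters. A match is a description of letters and no measure of binding.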

How the data were processed

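RNA of CD31-enriched cells from 8 embryos was measured, 4 for each genotype in 2 litters, with 1 array for each embryo. The deposited scanner files hold a linear intensity for each spot of 1 channel. Agilent Feature Extraction 10.7.3.1 produced them with annotation of mm9, per the file headers, and subtracted background without scaling arrays to each other. The authors' deposited table gives log2 values, a log2 fold change and a p-value for each probe. The submitters' processing notes name limma for it. Its columns track the scanner values (r = 1 for each), lie near array medians of -0.1 to -0.06, and run mutant over wild type. It served as an alternative.

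Log2 intensity minus the array's 75th percentile was taken, 130 to 521 outlier spots per array were removed, and repeated spots were averaged. Of 55681 probes, 48121 were well above background on at least 4 of 8 arrays. The brightest probe stood for a gene, which gave 40235 features, 21796 with a symbol. Probes were named through RefSeq accessions (26762), symbols or synonyms (4458) or the file (2044), and 22417 had no name. All features were fitted in R 4.3.3 using lmFit and eBayes of limma 3.58.1 (two-sided tests, threshold 0.05 after Benjamini-Hochberg adjustment), by genotype, by litter with genotype in the model, and with their interaction. The fits were tested on simulated data with noise drawn independently for each value. That simulation does not cover the variation that features share across these arrays. Differences between genes were tested by exact permutation of samples.

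Litter is shared by label, and not every same-numbered pair deviated together (r = 0.62, -0.03, -0.1 and -0.16), so litter was preferred as a block. For genotype, blocks entered only as alternatives, and the main fit had none. The members and gene lists were chosen with earlier results of these data known. All 9 genes are named with every probe. Of most lists, genes past the threshold (at most 4) or else the 2 brightest are named. The erythroid, endothelial and B, T and natural killer cell lists are summarised without naming genes by this rule. Fcer1a and Fcer1g were added for their role. Markers counted exclude Ms4a members. The alternatives tried were other scalings and background corrections, filters, probe rules, weights, blocks and left-out arrays.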

Additional observations from a re-analysis of the deposited data

How the results depend on the processing

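No Ms4a gene passed the threshold by genotype under any of the 21 alternatives. The lowest adjusted p was 0.0581, for Ms4a3 with array weights (limma). With litter as a replicate block, as with sample number as one, the median difference of the tested genes was -0.52, and the count of all features called was 0 in place of 18. That count was also 0 without the 3 arrays apart on the first principal component, 1 after quantile normalization, 5 with normexp and quantile normalization, 8 with no filter, 31 with trend and robust settings, 52 with the authors' log2 values and 3711 with array weights, and 0 to 24 with each array left out. These counts are over unlike numbers of features, 46574 with no filter and 36359 with the authors' values, against 40235 in the main fit. For the tested genes the authors' values gave the same differences as scaling to the median, so these are not separate checks. Ms4a3, Ms4a7, Ms4a6c and Ms4a4b kept a negative difference under every alternative run. Ms4a3 ranged from -1.81 to -0.68. The median difference of the tested genes was -0.87 to -0.24 with each array left out. Ms4a4c turned to -0.05 and -0.04 under the quantile settings, to -0.63 with the mean of its probes, and to -0.71 and -1.52 by its other probes. Ms4a6d turned to -0.52 with array weights, and ranged from -0.52 to 0.53 with each array left out.

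By litter, the count of called genes was 3. It was 0 with scaling to the median and 1 with the authors' log2 values, both added after seeing the data, and 0 to 3 with each array left out. After quantile normalization, and after normexp and quantile normalization, it was 2. Ms4a6d was not called in these 2 settings (adjusted p = 0.141 and 0.13 by limma). Ms4a6c, Ms4a6d and Ms4a7 stayed higher in litter 2 in all 14 alternatives. Ms4a4b, at 0.37, turned to -0.05 and -0.04 under the quantile settings, to -0.1 with scaling to the median and the authors' values, to -0.06 without the 3 arrays apart, and ranged from -0.05 to 0.81 with each array left out. Ms4a4c turned to 0.05 with normexp and quantile normalization. The causes were not tested. The exact permutation test of Ms4a3 minus Ms4a7 gave p = 0.278 within litters, where the number of arrangements does not allow 0.05, and 0.0857 to 0.714 otherwise. Signal over background limits Ms4a2, Ms4a4d and Ms4a6b, for which no test is given.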
